A study of Mus musculus with 2 samples.

Results

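The forkhead transcription factor family was examined in mouse embryos of the strain B6NCrl at 12.5 days, in the facial prominence, from which the face forms. Its members were all protein-coding genes of GENCODE release M21 whose symbol is Fox followed by a subfamily letter from a to s and a number. The rule found 44 genes among 22028 protein-coding genes and used no measured value. PolyA plus RNA-seq had been made from 2 biological replicates, mixed-sex pools of 120 embryos for replicate 1 and 88 embryos for replicate 2, each from 10 ng of RNA. Both carry the same strain, age and tissue, with no treatment or altered allele, so they form 1 group and no condition can be compared. Expected counts, which estimate the number of reads per gene, summed to 28705073 in replicate 1 and 41092194 in replicate 2. Levels are given in TPM, a share of all transcripts corrected for transcript length, so that genes of different length can be set side by side. All 7 mesenchyme markers of the face that were examined were detected, summing to 902 TPM in replicate 1 and 950 TPM in replicate 2, as were all 5 markers of surface epithelium, at 262 and 260 TPM. Of these 12 markers, Alx1 alone reached a log2 ratio of 0.5 in size between the replicates, with 103 TPM in replicate 1 and 150 TPM in replicate 2. In whole tissue, few cells with much of an RNA and many cells with little of it cannot be told apart.

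Forkhead proteins bind DNA through a winged-helix domain, whose recognition helix lies in the major groove, and they act as activators, repressors or openers of closed chromatin. In the developing face, Foxf1, Foxf2, Foxd1, Foxd2 and Foxl1 are known as mesenchymal genes that respond to hedgehog signals from the epithelium, and Foxc1 and Foxc2 as regulators of cranial mesenchyme, bone, vessels and the eye. Other members work in every dividing or fed cell, such as Foxm1 in mitosis and the Foxo proteins under the insulin and Akt pathway.

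The most conserved part of the recognition helix is shown first, because it is the sequence that the family shares. A stretch of 36 bases, or 12 codons, was searched for by a pattern that fixed a tryptophan, an arginine, a histidine and a leucine. The pattern also limited some other residues, so the number of differing residues is partly set by the search. A match was located in a GENCODE M21 coding transcript of 43 of the 44 members, and only Foxr1 did not match the pattern. These 12 codons gave 12 distinct residue stretches but 40 distinct base stretches. Foxc1 and 15 other members, among them Foxc2, Foxd1, Foxd2, Foxl1, Foxl2, Foxk1 and Foxk2, encoded the same residues, and 0 of those 15 used the same bases as Foxc1. The stretches of 10 members, from the leading transcript of each and read 5′ to 3′ on the coding strand, are given below with capitals for the bases that differ from Foxc1.
Foxc1: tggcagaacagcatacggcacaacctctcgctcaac
Foxd1: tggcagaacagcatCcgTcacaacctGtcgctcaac
Foxd2: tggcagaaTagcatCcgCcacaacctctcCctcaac
Foxl2: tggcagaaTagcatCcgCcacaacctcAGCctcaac
Foxk2: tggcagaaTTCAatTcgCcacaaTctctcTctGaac
Foxf2: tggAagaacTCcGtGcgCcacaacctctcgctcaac
Foxn3: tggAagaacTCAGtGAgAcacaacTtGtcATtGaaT
Foxo3: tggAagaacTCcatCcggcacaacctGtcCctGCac
Foxp4: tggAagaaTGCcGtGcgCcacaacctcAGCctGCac
Foxj3: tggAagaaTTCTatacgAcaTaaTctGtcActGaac
Foxd1 differed from Foxc1 at 3 bases, Foxd2 at 4, Foxl2 at 6 and Foxk2 at 9, in each case with 0 changed residues. Foxf2 differed at 6 bases and 2 residues, and it encoded the same residues as Foxf1 and the 4 Foxn genes. Foxp4 differed at 12 bases and 4 residues. Across the 43 members that matched, differences from Foxc1 reached 16 bases and 5 residues.

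Despite this shared domain, no pair of members shared 100 bases of identical sequence. The longest run of bases shared by transcripts of any pair of members was 68, in Foxd3 and Foxd4. This is shorter than 100 bases, the read span implied by effective lengths that were a median of 99 bases below the deposited lengths. Deposited expected counts were whole numbers for 37 members in both replicates and fractional for 7, among them Foxp1, Foxm1, Foxo1, Foxj2, Foxb1 and Foxp3. All 7 share a run of 100 bases with an overlapping gene of another family, but such a run did not always go with fractional counts. Of 10 members with a shared run, the other 3, Foxe1, Foxn2 and Foxq1, had whole counts, and the overlapping gene of Foxq1, A530084C06Rik, had 0 counts in both replicates. For Foxo1, a mediator of insulin signalling, and the antisense gene Gm20402, replicate 1 had 932 and 61.1 counts, which add up to 993, and replicate 2 had 1349 and 82.3 counts, which add up to 1431. Foxj2 and its antisense gene Gm26826 likewise add up to whole numbers, 518 in replicate 1 and 710 in replicate 2, and Foxb1 and its antisense gene B230323A14Rik to 9 and 5. Whole here means within 0.015 of a whole number. For these 3 members the fractions thus add up with those of a gene on the other strand.

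The facial tissue contained most of the family. Members with 1 TPM or more in each replicate are called detected here, and these were 27 of 44 members, or 61.4%, against 60.7% of all protein-coding genes, so the share of the family was near that of the whole set. The family summed to 481 TPM in replicate 1 and 499 TPM in replicate 2, a mean of 490 ± 12.3 (SD, n = 2). The 4 highest genes, Foxp1, Foxn3, Foxp2 and Foxp4, made up 54.6% of this sum in replicate 1 and 55.0% in replicate 2. The median member stood at 2.19 TPM in replicate 1 and 1.69 in replicate 2, against 4.80 and 4.75 TPM for all protein-coding genes. By mean level, 2 members exceeded 50 TPM, 6 lay between 20 and 50, 2 between 10 and 20, 8 between 5 and 10, 11 between 1 and 5, and 15 were below 1. When the 27 detected members were ordered by mean, the ranges of the replicates overlapped in 13 of 26 neighbouring pairs, and no detected member moved by more than 5 ranks between the replicates.

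**Figure D1:**
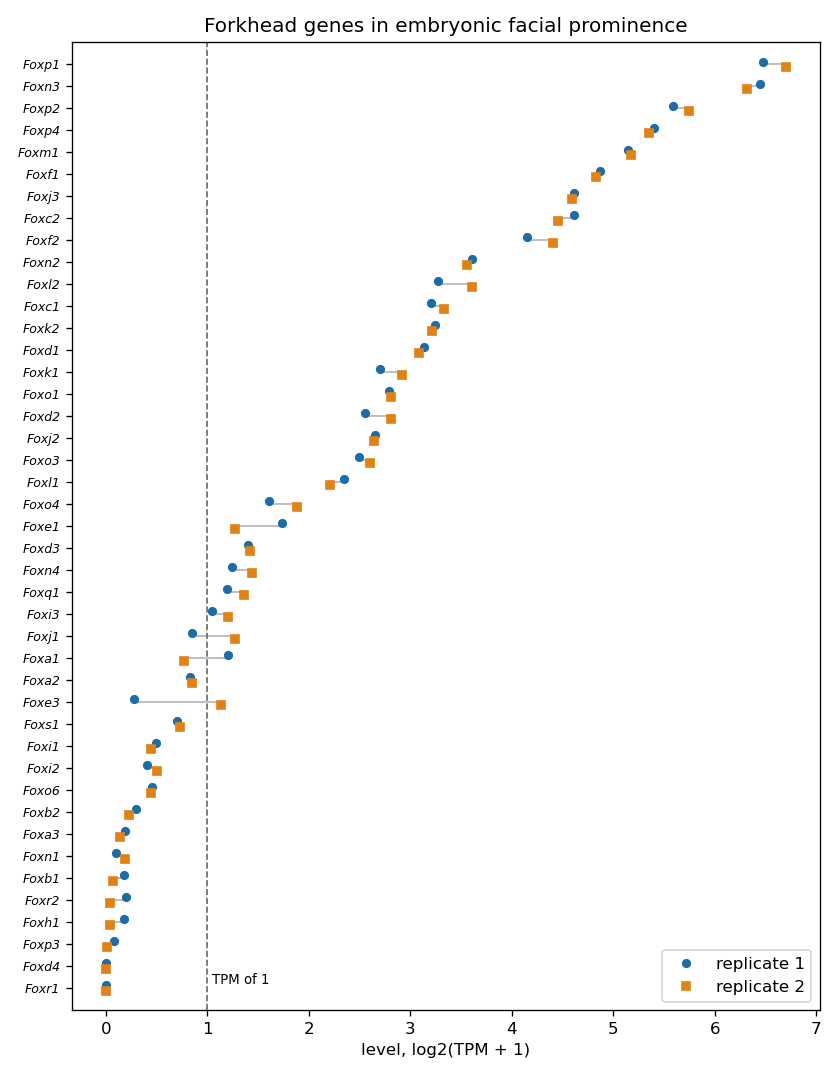
Level of 43 of the 44 forkhead genes as log2(TPM + 1), ordered by mean, with circles for replicate 1, squares for replicate 2, a grey line joining them and a dashed line at a TPM of 1. The upper part of the order is nearly shared by both pools, from Foxp1 at 95.5 TPM on average down to Foxn2 at 11.0, and the widest gap is that of Foxe3, at 0.21 TPM in replicate 1 and 1.20 in replicate 2.

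The Foxp subfamily, zinc-finger and leucine-zipper repressors that bind DNA as dimers, gave the largest share of forkhead RNA, 36.6% in replicate 1 and 39.2% in replicate 2. Foxp1 (chromosome 6, 98925338 to 99522721 on mm10), a repressor needed in heart, lymphocytes and motor neurons, had 88.1 TPM in replicate 1 and 103 TPM in replicate 2. Foxp2, known for its role in vocal communication and neural development, had 47.1 and 52.7 TPM in replicates 1 and 2. Foxp4, a relative active in lung and brain, had 41.1 and 39.9 TPM. Foxp1 lay above every other member in both replicates. The fourth member, Foxp3, which specifies regulatory T cells, had 3.53 and 1.16 expected counts in replicates 1 and 2, or 0.06 and 0.01 TPM. Of 5 T cell markers 0 were detected, and Il2ra was at 0 in both replicates.

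Foxn3 (chromosome 12, 99190078 to 99563582), a repressor first found as a checkpoint suppressor, followed Foxp1 with 86.5 TPM in replicate 1 and 78.9 TPM in replicate 2. It did not overlap Foxp1 above it or Foxp2 below it. Of the Foxn3 level, 37.6 and 33.2 TPM came from a short form, Foxn3-205, with 414 of 3917 counts in replicate 1 and 518 of 5569 in replicate 2. The distance of Foxn3 above Foxp2 thus rested largely on that form. Foxn2, the closest relative of Foxn3, had 11.2 and 10.8 TPM in replicates 1 and 2. Foxn4, which acts in retinal and spinal progenitors, had 1.36 and 1.71 TPM. Foxn1, the master regulator of thymic epithelium, was not detected, with 4 counts in replicate 1 and 11 counts in replicate 2. Of 4 thymic epithelium markers, 3 were detected, among them Ccl25 at 20.4 and 18.0 TPM, while the thymus-specific proteasome gene Psmb11 stood at 0.08 and 0.04 TPM.

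Foxm1 (chromosome 6, 128362967 to 128376146), which drives the genes of mitosis, had 34.4 TPM in replicate 1 and 35.2 TPM in replicate 2, with a mean of 34.8 ± 0.587 (SD, n = 2). All 8 mitotic genes it is known to regulate were detected, with a median of 115 TPM in replicate 1 and 113 TPM in replicate 2. They ranged from the kinase Nek2, at 28.8 and 31.7 TPM in replicates 1 and 2, to Birc5, the survivin gene, at 250 and 244 TPM. None of the 8 differed between the replicates by a log2 ratio of 0.5 or more.

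Among the mesenchymal members, Foxf1 and Foxc2 stood highest, and the genes lie in groups. On chromosome 8, Foxf1, Foxc2 and Foxl1 start within 43.6 kb of each other on the same strand, and on chromosome 13, Foxq1, Foxf2 and Foxc1 start within 250.5 kb, again on 1 strand. Foxf1 (chromosome 8, 121084386 to 121088144), needed for mesoderm and gut mesenchyme, had 28.2 TPM in replicate 1 and 27.4 TPM in replicate 2. Foxc2, which regulates mesenchyme, palate and lymphatic vessels, starts 31.8 kb further on and had 23.4 and 20.9 TPM. Foxl1, a mesenchymal gene best known from the gut, starts 11.8 kb beyond Foxc2 and had only 4.08 and 3.61 TPM. The levels thus decreased along this group in both replicates. A much longer annotated gene, Gm20388 (119910841 to 124345722), spans all 3 on the same strand but shares no run of 100 bases with any of them. Over its whole length, Gm20388 held 17.2 counts in replicate 1 and 0.95 in replicate 2.

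In the group on chromosome 13, the middle gene was the highest. Foxf2 (31625816 to 31631403), required for closure of the palate, had 16.8 TPM in replicate 1 and 20.2 TPM in replicate 2. Foxc1 (31806633 to 31812476), required for skull, eye and neural crest development, had 8.19 and 9.08 TPM. Foxq1 (31556134 to 31560976), known for hair structure and mucin secretion, had 1.28 and 1.56 TPM. By TPM all 3 were higher in replicate 2, and for Foxq1 the counting interval given by 112 and 194 counts, 0.647 to 1.05 as a ratio, held 1. Another pair joins Foxd2 and Foxe3 on chromosome 4, with starts 17.1 kb apart, at mean levels of 5.45 and 0.705 TPM.

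The Foxd genes with mesenchymal roles were both detected. Foxd1 (chromosome 13, 98354242 to 98359305), which marks stromal progenitors, had 7.81 TPM in replicate 1 and 7.46 TPM in replicate 2. Foxd2 had 4.87 and 6.03 TPM in replicates 1 and 2. Foxd3, a regulator of early neural crest, had 1.63 and 1.67 TPM, while all 5 markers of neural crest and its glia were detected and summed to 102 and 113 TPM. Of these, Tfap2b passed a log2 ratio of 0.5 in size, with 21.6 TPM in replicate 1 and 32.5 TPM in replicate 2. For Foxd4 the expected count was 0 in both replicates, which allows up to 0.0873 TPM in replicate 1 and 0.0616 TPM in replicate 2, from a limit of 3 counts that covers counting error only.

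All 12 genes examined of the hedgehog pathway, which acts upstream of several of these members, were detected. The ligand Shh stood at 1.18 TPM in replicate 1 and 1.24 in replicate 2, and its signal transducer Smo at 54.3 and 55.1 TPM. The receptor and target Ptch1 had 22.9 and 19.5 TPM, and the target and effector Gli1 had 12.9 and 12.1 TPM. Of the 12, 1 gene, the ligand-binding antagonist Hhip, differed by a log2 ratio of 0.5 or more, with 2.65 TPM in replicate 1 and 4.53 TPM in replicate 2.

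Foxl2 (chromosome 9, 98955288 to 98958543), which acts in the eyelid, the ovary and the mesenchyme of the head, had 8.63 TPM in replicate 1 and 11.2 TPM in replicate 2. Of 3 markers tied to its roles elsewhere, the ovarian aromatase gene Cyp19a1 stood at 0.05 and 0.07 TPM, Amh was at 0 in both replicates, and the activin antagonist Fst had 32.6 and 36.1 TPM.

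The members with roles in most cells lay between 2.04 and 23.4 TPM, apart from Foxo6, Foxm1 and the Foxp and Foxn genes given above. Foxk1 and Foxk2, which bind as repressors of autophagy genes and act in muscle progenitors, averaged 6.04 ± 0.735 and 8.37 ± 0.113 TPM (SD, n = 2). Foxj3, a regulator of muscle and germ cell genes, had 23.4 TPM in replicate 1 and 23.1 TPM in replicate 2, and its relative Foxj2 had 5.29 and 5.23 TPM. Of the Foxo proteins, which are exported from the nucleus when Akt phosphorylates them, Foxo1 had 5.90 and 6.02 TPM in replicates 1 and 2 and Foxo3 had 4.65 and 5.06 TPM. Foxo4 was lower, at 2.04 and 2.69 TPM, and Foxo6 was below detection at 0.37 and 0.36 TPM. All 11 kinases, phosphatases and partners that control these proteins were detected, from Sirt1, the deacetylase, at 6.54 and 5.74 TPM to the 14-3-3 gene Ywhae at 824 and 866 TPM. Akt1 was the only gene of the 11 past a log2 ratio of 0.5, with 120 TPM in replicate 1 and 77.3 TPM in replicate 2. Of 10 genes that Foxo proteins are known to regulate, 9 were detected, and the exception was Bcl6 at 0.51 and 0.40 TPM.

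Partners of forkhead proteins, most of them co-repressors, were present as well. All 9 examined were detected, led by Ctbp1 at 344 TPM in replicate 1 and 327 in replicate 2. They include the transcription factor Nfatc1, at 14.1 and 13.8 TPM. The Groucho-type genes Tle1, Tle2, Tle3 and Tle4 lay between 21.2 and 55.8 TPM. For 8 of the 9 the level was higher in replicate 1, and none passed a log2 ratio of 0.5.

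Members known from small or specialised cell populations were low. Foxe1, needed for the thyroid and the palate, had 2.33 TPM in replicate 1 and 1.41 TPM in replicate 2. Foxi3, required in the branchial arches, ear and teeth, had 1.06 and 1.30 TPM in replicates 1 and 2. A further 3 members crossed the limit of 1 TPM in only 1 replicate. Foxa1, which opens chromatin in foregut endoderm, did so in replicate 1, with 1.30 TPM there and 0.70 TPM in replicate 2. Foxj1, the master regulator of motile cilia, had 0.80 TPM in replicate 1 and 1.42 TPM in replicate 2. Foxe3, which keeps the lens epithelium dividing, had 3 counts in replicate 1 and 24 counts in replicate 2, or 0.21 and 1.20 TPM.

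The remaining 14 members were below 1 TPM in both replicates. Foxa2, the floor plate and endoderm gene, had 0.78 and 0.80 TPM in replicates 1 and 2, and Foxs1, a pericyte gene, had 0.63 and 0.66 TPM. Foxi1, of the inner ear and of ion-transporting cells, had 0.41 and 0.36 TPM, and Foxi2 had 0.32 and 0.42 TPM. Foxh1, the partner of Smad proteins in Nodal signalling, held 3 counts in replicate 1 and 1 count in replicate 2, while the Smad genes Smad2, Smad3 and Smad4 were all detected and Nodal stood at 0.05 and 0.08 TPM. The Nodal antagonist Lefty1 had 0.96 TPM in replicate 1 and 1.86 TPM in replicate 2, a log2 ratio past 0.5 in size. Foxa3, Foxb1, Foxb2, Foxn1, Foxp3 and Foxr2 were at or below 0.23 TPM in both replicates. Foxd4 and Foxr1 had 0 counts, which for Foxr1 allows up to 0.156 TPM in replicate 1 and 0.11 TPM in replicate 2.

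None of the 29 members at a mean TPM of 1 or more differed between the pools by the fold used here. A log2 ratio of (TPM + 1) of 0.5 or more in size, replicate 1 over replicate 2, was reached by 0 of these 29, against 2.58% of all protein-coding genes at that level. With a pseudocount of 0.1 in place of 1, 4 members passed, against 4.80% of all protein-coding genes. Among them were Foxa1 and Foxe1 in favour of replicate 1 and Foxj1 in favour of replicate 2. Foxa1 and Foxj1 entered the 29 only through the replicate where they are high, so the filter favoured these directions. Below the minimum level, Foxe3 passed in favour of replicate 2. Each is 1 library against 1 library, so neither count carries a p-value. The median size of the log2 ratio among detected members was 0.14, against 0.085 among all detected protein-coding genes. These sets were not matched for level, on which the size of the ratio depends. By TPM, 12 detected members were higher in replicate 1 and 15 in replicate 2. Some members nevertheless differed by more than counting error, judged by an exact 95% interval of the count ratio, with counts scaled by the total over all genes. That interval covers counting error only, since amplified reads are not independent molecules and the spread between pools is not in it.

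Higher in replicate 1 by this measure were 5 of 29 members, or 17.2%, against 15.5% of all protein-coding genes. Among them were Foxe1, Foxc2, Foxp4 and Foxa1. Foxe1 had 116 counts in replicate 1 and 100 in replicate 2, a scaled ratio of 1.66 (interval 1.26 to 2.19). Foxc2 and Foxp4 differed less, with ratios of 1.13 (1.04 to 1.22) and 1.06 (1.00 to 1.12). Foxp4 thus only just qualified. Foxa1 had 74 counts in replicate 1 and 57 in replicate 2, a ratio of 1.85 (1.29 to 2.67), but it entered the 29 only through replicate 1, where it is high, so the filter favoured that direction and its place in the count is no support for it.

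Higher in replicate 2 were 7 of 29 members, or 24.1%, against 14.7% of all protein-coding genes. The ratios of replicate 1 over replicate 2 were 0.777 (interval 0.695 to 0.867) for Foxl2 and 0.814 (0.688 to 0.961) for Foxd2. Foxf2 had a ratio of 0.838 (0.762 to 0.921), Foxp1 of 0.851 (0.819 to 0.883), Foxp2 of 0.856 (0.821 to 0.893) and Foxc1 of 0.908 (0.833 to 0.989). Foxj1 had a ratio of 0.562 (0.373 to 0.830), and it likewise entered the 29 only through replicate 2, where it is high. Below the mean TPM of 1, Foxe3 had a ratio of 0.178 (0.0344 to 0.588), and Foxr2, with 8 and 2 counts in replicates 1 and 2, a ratio of 5.71 (1.14 to 55.2).

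**Figure D2:**
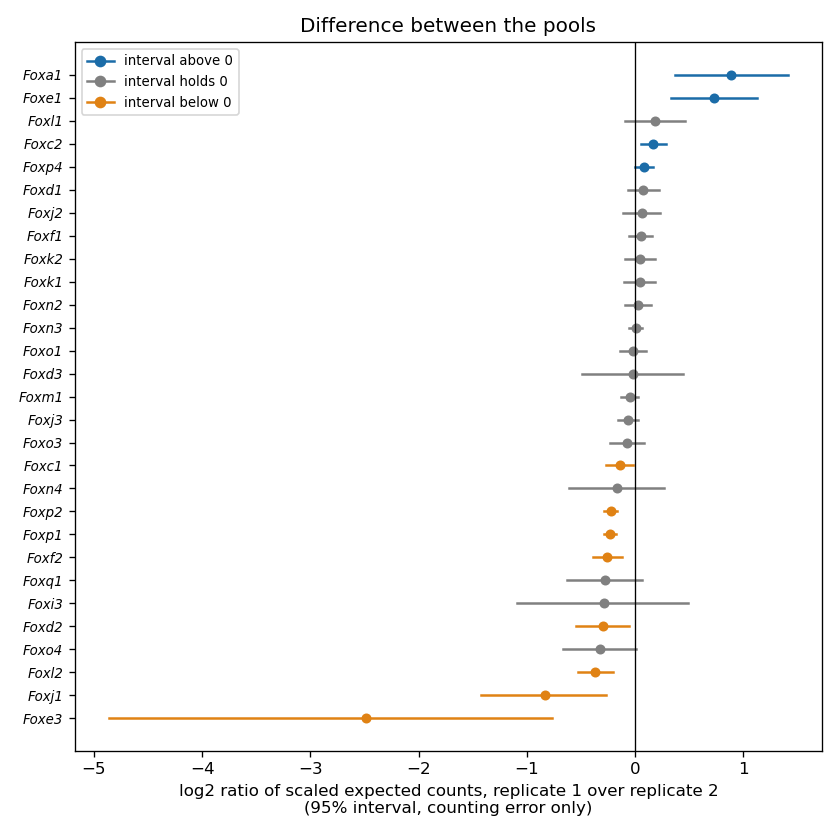
Ratio of scaled expected counts of replicate 1 over replicate 2 on a log2 axis, with the exact 95% counting interval, for Foxe3 and 28 of the 29 members with a mean TPM of 1 or more. Blue marks the 4 plotted members whose interval lies above 0, orange those below 0, and the low members Foxa1, Foxe1, Foxj1 and Foxe3 lie farthest from 0.

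Markers of the tissues in which these low members are known to act were measured beside them. For Foxe3, all 7 lens markers were detected and summed to 219 TPM in replicate 1 and 513 TPM in replicate 2, and 5 of the 7, all of them crystallins, passed a log2 ratio of 0.5 in favour of replicate 2. The lens regulators Pitx3 and Prox1 did not, with 7.45 and 9.65 TPM for Pitx3 and 2.80 and 2.78 TPM for Prox1 in replicates 1 and 2. For Foxe1 and Foxa1, 3 of 5 thyroid and anterior foregut markers were detected, and the 5 summed to 22.3 and 15.02 TPM. Of these, Nkx2-1, a thyroid and forebrain regulator, had 3.46 TPM in replicate 1 and 1.27 TPM in replicate 2. Sox17, of endoderm and endothelium, had 11.4 and 7.10 TPM, while the thyroglobulin gene Tg had 0.41 and 0.30 TPM. Hhex had 6.86 and 6.12 TPM, with a counting interval of 0.897 to 1.31 that held 1. Pax8 went the other way, with 0.21 TPM in replicate 1 and 0.23 TPM in replicate 2. Beside Foxj1, 3 of 7 markers of motile ciliated cells were detected, and all 7 together summed to 23.5 and 23.3 TPM. The ciliary gene Tekt1, with 4.02 and 5.01 TPM, Rsph1, with 0.59 and 0.88 TPM, and Ccno, with 0.42 and 0.62 TPM, were higher in replicate 2, and Rfx2 and Rfx3, which made up most of the sum, in replicate 1, none past the fold. The axonemal dynein genes Dnah5 and Dnah9 stood at or below 0.23 TPM. Each gene of these 3 lists had a count above 0 in at least 1 replicate. The part of the amounts of these tissues, or of the mesenchyme and crest markers given above, in the differences between the pools was not tested.

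Other marker lists stood as follows. All 7 markers of endothelium and pericytes were detected, summing to 106 TPM in replicate 1 and 104 TPM in replicate 2, with none past the fold, beside Foxc1, Foxc2, Foxf1 and Foxs1. For muscle precursors, beside Foxk1 and Foxo1, 4 of 4 were detected at summed levels of 77.7 and 90.2 TPM. Smooth muscle markers were detected in 2 of 3 cases, and all 3 summed to 92.9 and 103 TPM. Of 5 floor plate and notochord markers, beside Foxa2, 2 were detected, all 5 summed to 28.1 and 24.5 TPM, and the notochord gene Noto was at 0 in both replicates. Of 4 inner ear and ionocyte markers, beside Foxi1, only Oc90, an inner ear matrix gene, was detected, at 40.9 TPM in replicate 1 and 17.9 in replicate 2.

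Several members lie head to head with non-coding genes, and 2 of these shared start regions are shown because their starts lie closest to each other. The windows come from RefSeq on GRCm38.p6, run 5′ to 3′ from 250 bases before to 50 bases after a RefSeq start, and capitals mark the bases between the GENCODE starts of both genes, both included. The window of Foxf2, chr13:31625566-31625865 on the plus strand, has 25 bases in capitals, and the starts are 24 bases apart. The window of Foxl2os, chr9:98955261-98955560 on the minus strand, has 12 bases in capitals, in which the divergent transcripts of Foxl2 and Foxl2os overlap.
Foxf2: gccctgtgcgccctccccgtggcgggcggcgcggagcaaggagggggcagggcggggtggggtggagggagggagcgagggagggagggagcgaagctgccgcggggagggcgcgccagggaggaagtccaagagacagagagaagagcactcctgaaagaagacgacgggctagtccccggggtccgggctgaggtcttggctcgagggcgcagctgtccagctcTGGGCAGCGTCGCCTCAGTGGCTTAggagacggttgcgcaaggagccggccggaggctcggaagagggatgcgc
Foxl2os: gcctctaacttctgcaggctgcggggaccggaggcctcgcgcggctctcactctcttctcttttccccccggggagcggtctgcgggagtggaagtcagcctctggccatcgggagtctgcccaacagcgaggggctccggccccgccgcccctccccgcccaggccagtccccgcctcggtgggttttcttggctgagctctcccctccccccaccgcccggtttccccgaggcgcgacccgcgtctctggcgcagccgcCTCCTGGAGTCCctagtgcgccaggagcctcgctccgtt
Foxf2 had 16.8 TPM in replicate 1 and 20.2 TPM in replicate 2, beside 5.50 and 6.35 TPM for its partner 1700018A04Rik. Foxl2 had 8.63 and 11.2 TPM in replicates 1 and 2, beside 2.45 and 4.30 TPM for Foxl2os. Both coding genes therefore exceeded their partners in each replicate. The scaled count ratio of replicate 1 over replicate 2 was 1.06 (interval 0.868 to 1.30) for 1700018A04Rik and 0.801 (0.609 to 1.05) for Foxl2os. By counts, neither thus differed beyond counting error. By TPM, Foxl2os passed the fold used here in favour of replicate 2, while 1700018A04Rik did not. For Foxl2os, TPM and counts therefore gave different pictures.

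The other partners gave other patterns. Foxd2os, which starts 384 bases from Foxd2, was higher than its coding neighbour, with 12.4 TPM in replicate 1 and 12.03 TPM in replicate 2. Fendrr, a non-coding RNA known from mesoderm development that starts 1276 bases from Foxf1, had 7.28 and 4.55 TPM in replicates 1 and 2 and a scaled count ratio of 1.53 (interval 1.25 to 1.86), while the ratio of Foxf1 was 1.04 (0.963 to 1.12). Gm12446, antisense to Foxe1, had 31 counts in replicate 1 and 22 in replicate 2, a ratio of 2.01 (1.13 to 3.65), on the same side as Foxe1. Without a stated strand setting, reads from sequence that an antisense pair shares cannot be told apart with certainty. Foxe1 and Gm12446 share little such sequence, only 3 windows of 100 bases. Both had whole counts in both replicates.

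**Figure D3:**
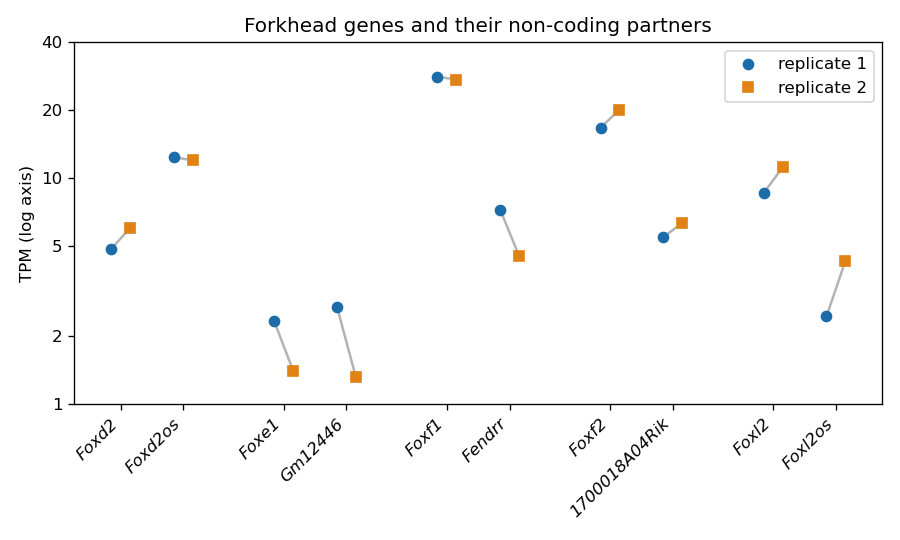
TPM on a log axis of 5 forkhead genes and of the non-coding gene that starts near or overlaps each, with circles for replicate 1 and squares for replicate 2. Foxd2os lies above Foxd2 in both replicates, Gm12446 lies near Foxe1, and the partners of Foxf1, Foxf2 and Foxl2 lie below their coding genes.

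Start windows of 28 members were found in the RefSeq table, all of 300 bases. They held a median of 22 CpG dinucleotides, against 7 for the windows of all 27025 genes, and a median GC content of 62.7%, against 52.7%. Unlike the protein-coding background used above, those 27025 genes include non-coding ones such as Foxl2os, while all members are protein-coding. The TATA box letters TATAAA, searched on both strands, occurred in 3 of 28 members, or 10.7%, against 15.7% of all genes. The letters CCAAT occurred in 15 members, or 53.6%, against 41.1%. A core of the forkhead binding motif, TGTTTAC, occurred in 1 member, Foxa1, or 3.57%, against 4.05%. None of the 3 motifs contains another, and a match describes the letters of the window only.

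Transcript tables showed how many forms stood behind the highest genes. Of the detected members, 12 have 1 annotated transcript and 15 have more, and for 7 of the 15 at least 90% of the gene's TPM came from protein-coding transcripts in both replicates. Foxp1, with 31 annotated transcripts, was led by Foxp1-225, a form of 1848 bases and 15 exons that carried 43.0% of its TPM in replicate 1 and 48.0% in replicate 2. The longer Foxp1-204, of 7177 bases, carried 17.8% and 17.9%. Foxp2 was led by a form of 6760 bases and 19 exons with 32.9% and 34.9% in replicates 1 and 2, and Foxm1 by Foxm1-201 with 68.8% and 69.9%. The leading transcript was thus shared by both replicates for these genes, as it was for 14 of the 15.

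Foxp4 was the exception. Foxp4-204, of 3999 bases, carried 38.2% in replicate 1 and 29.2% in replicate 2, and Foxp4-202, of 3198 bases, carried 23.5% and 37.4%. Both forms are protein-coding with 17 exons. Foxj2 kept its leading form, Foxj2-201, but at 82.5% in replicate 1 and 63.4% in replicate 2. These shares are estimates for overlapping transcripts and carry no error of their own here.

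**Figure D4:**
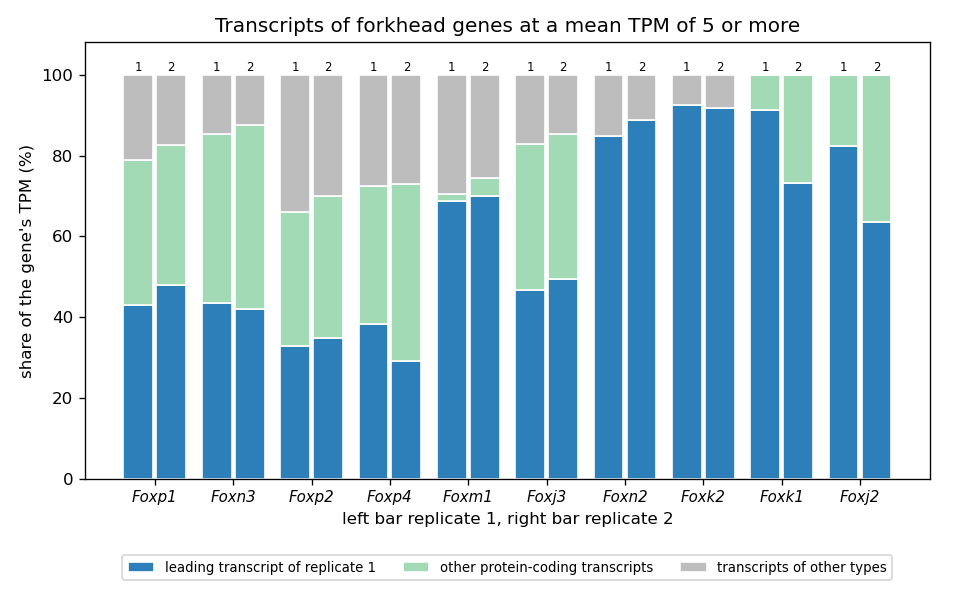
Share of each gene's TPM, in percent, carried by the leading transcript of replicate 1 (blue), by other protein-coding transcripts (green) and by transcripts of other types (grey), for the 10 members with several transcripts and a mean TPM of at least 5. The left bar of each pair is replicate 1 and the right bar replicate 2, and the blue share is lower in replicate 2 for Foxp4, Foxk1 and Foxj2.

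TPM and counts gave different pictures for some members. For Foxk1, the TPM was 5.52 in replicate 1 and 6.56 in replicate 2, while the scaled count ratio of replicate 1 over replicate 2 was 1.03 (interval 0.934 to 1.14). Its short form Foxk1-202, of 687 bases, held 5.19 counts in replicate 1 and 26.9 counts in replicate 2, yet 8.67% and 26.6% of the gene's TPM. The largest part of the TPM of Foxn3 likewise came from a form of 696 bases, Foxn3-205, with 43.5% and 42.1%, and its count ratio was 1.00 (0.964 to 1.05). For Foxk1, Foxn3 and Foxj3 the sign of the log2 ratio changed when counts scaled by TMM replaced TPM.

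The same reads had also been quantified with the older GENCODE release M4, in which all 44 members were found. A log2 ratio of (TPM + 1), release M21 over M4, of 0.5 or more in size and in the same direction in both replicates occurred for 2 of 44 members, or 4.55%, against 3.99% of the protein-coding genes in both releases. For Foxc1, release M21 gave 8.19 TPM in replicate 1 and 9.08 TPM in replicate 2, and M4 gave 12.8 and 14.2 TPM. The counts were 867 and 1364 in M21, against 861 and 1359 in M4, while the annotated length was 5844 bases in M21 and 3953 bases in M4. Foxd1 had 7.81 and 7.46 TPM in M21, against 16.0 and 15.3 TPM in M4, with lengths of 5064 and 2462 bases. Its counts were 715 and 968 in M21, against 659 and 895 in M4. Counts of both genes thus differed far less between the releases than their lengths did.

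Foxl2 and Foxn3 changed in the other measure. Foxl2 had 502 counts in replicate 1 and 923 in replicate 2 in M21, against 192 and 388 in M4, over lengths of 3256 and 1241 bases, and its TPM was 8.63 and 11.2 in M21, against 9.62 and 13.7 in M4. Foxn3 had 3917 and 5569 counts in M21, against 2296 and 3173 in M4, and 86.5 and 78.9 TPM in M21, against 87.7 and 80.9 in M4. Foxq1 lay between, with 1.28 and 1.56 TPM in M21, against 1.92 and 2.20 in M4. In M4 Foxd1 stood above Foxc1, Foxl2 and Foxk2 in both replicates, whereas in M21 it stood below them. The median log2 ratio of detected protein-coding genes was -0.06 in both replicates, and 20 members had the same deposited length in both releases, judged in replicate 1.

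**Figure D5:**
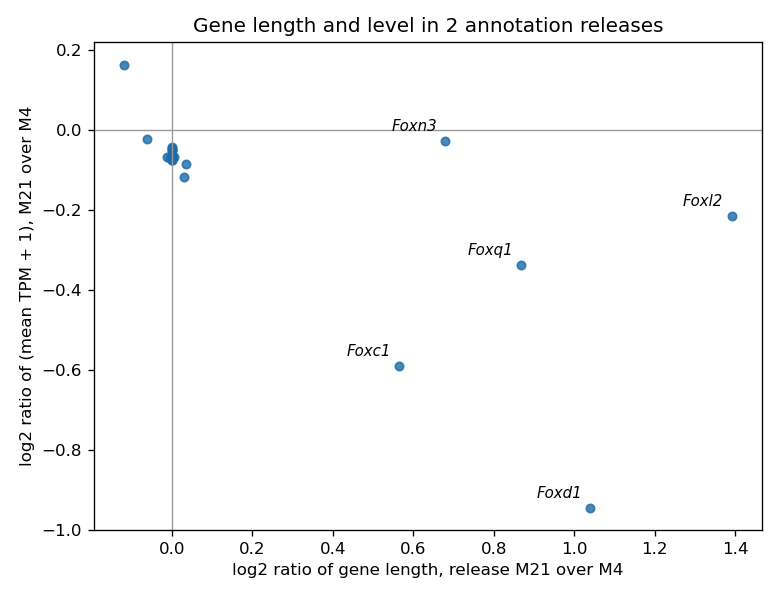
Log2 ratio of deposited gene length in replicate 1 (x axis) against log2 ratio of (mean TPM + 1) over both replicates (y axis), release M21 over M4, for 26 of the 27 detected members. For genes with several transcripts the deposited length can differ between replicates, as for Foxn3 in M21, with 2557 bases in replicate 1 and 2799 in replicate 2. Most lie near the origin, Foxd1 and Foxc1 lie lowest, and Foxl2 and Foxn3, though of greater deposited length in M21, lie nearer to 0 on the y axis.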

How the data were processed

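PolyA plus RNA-seq of the facial prominence was analysed in 2 libraries, which per the labels come from separate pools and were primed with oligo-dT, given ERCC spike-ins and tagmented. Per the file headers, the deposited gene tables hold an expected count, TPM, posterior mean TPM and FPKM for annotation releases M21 and M4 on mm10, and the deposited transcript tables also a percent per transcript. For the aligner, the quantifier and the strand setting, nothing is given in the sources used here.

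Members were matched by symbol through the GENCODE M21 annotation. Levels are deposited TPM, with mean ± SD over n = 2. Expected counts were rounded for the exact conditional 95% interval of the count ratio, scaled by 27887968 and 39819334 summed counts of genes. Spike-ins took 2.85% and 3.10% of counts and rows that name no gene 0.000139% and 0.000114%, and both stayed out of the scaling. The log2 ratio used a pseudocount of 1 TPM, which understates differences of low genes. An exact sign-flip test on 2 libraries gives no p under 0.5, so no test was run. The ratio was checked on simulated data. Alternatives used counts in place of TPM, with TMM or relative log expression scaling in edgeR 4.0.16 under R 4.3.3. Other steps used Python 3.11.15, pandas 2.3.3, SciPy 1.17.1, Biopython 1.88 and matplotlib 3.10.9. Helix stretches came from GENCODE M21 transcripts, a choice made after the files were seen, and a comparison of whole domains was not analysed here. Every member could be named, though 1 member and some sequences are not reported here, beside genes of the lists and genes that overlap a member or start within 2 kb of it. The members and lists were chosen with earlier results of these data known.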

Additional observations from a re-analysis of the deposited data

How the results depend on the processing

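The number of detected members was 27 and lay between 23 and 34 with a TPM of at least 0.5, posterior mean TPM, FPKM, a rounded count of at least 10 or release M4, and between 28 and 29 with 1 replicate left out, but it was 17 at a TPM of at least 5. The summed level, 490 TPM, was 528 with release M4 and 526 with TPM rescaled to annotated genes, and lay between 481 and 499 with 1 replicate left out. The count of members past the fold between replicates, 0 of 29, was 4 with a pseudocount of 0.1, against 4.80% of all protein-coding genes. Among the 4 were Foxa1 and Foxe1, higher in replicate 1, and Foxj1, higher in replicate 2. The count was 3 with TMM scaling and 3 with relative log expression scaling (Foxa1, Foxe1 and Foxj1), against 2.02% and 2.01% of all protein-coding genes. In both settings scaled counts, which are not corrected for length, took the place of TPM. Both sets of factors were 1.006 in replicate 1 and 0.994 in replicate 2. These settings thus changed the unit and not only the scale. With spike-in scaling the number of members past the fold was 2 (Foxa1 and Foxe1), against 3.55%. With no minimum level it was 1 of 44 (Foxe3), against 2.09%. Foxa1 and Foxj1 reached the minimum level only through the replicate where they are high, so their calls are no support for a direction. Spike-in scaling moved the median log2 ratio of all detected protein-coding genes to 0.13. The sign of single members' ratios changed under count scaling for Foxn3, Foxk1, Foxj3 and Foxo6, under release M4 for Foxk1, and under spike-in scaling for Foxm1, Foxo1, Foxo3, Foxd3, Foxa2 and Foxs1, none of which had passed the fold. The count of members past the fold between releases stayed at 2 under each alternative, but with expected counts these were Foxl2 and Foxn3 in place of Foxc1 and Foxd1. The leading transcript differed for Foxp4 with release M4 as well, and for 1 member at a TPM of at least 5. The cause of these shifts was not tested. With 2 libraries the spread between pools rests on 1 difference, and members with few counts have wide counting intervals. No paired analysis was possible because both samples belong to 1 group.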
